A study of Homo sapiens with 4 samples.

Results

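The genes described here are 8 of the 60609 gene identifiers in the table, taken by symbol: the initiator caspases CASP2, CASP8, CASP9 and CASP10, the effector caspase CASP6, and the inhibitor of apoptosis (IAP) genes XIAP, BIRC2 and BIRC3. They were measured by RNA sequencing in CCRF-CEM/HA-AMPKa2, a derivative of the established human T cell leukaemia line CCRF-CEM that carries an HA-tagged alpha 2 subunit of the kinase AMPK. The groups were No glucose, 2 libraries from cells kept for 24 hours in medium without glucose (ONG_9 and ONG_10), and Ctrl, 2 libraries from cells kept for 24 hours in control medium (CTRL_7 and CTRL_8). Both groups carry the HA-AMPKa2 construct, so no parental CCRF-CEM sample enters the comparison, and the labels do not say whether the derivative is 1 clone. The comparison asks how the RNA of these genes differs in leukaemia cells under a metabolic stress.

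Caspases are cysteine proteases that carry out apoptosis. Initiator caspases are activated on assembly platforms: CASP8 and CASP10 at death receptors through the adaptor FADD, CASP9 on the apoptosome after cytochrome c leaves the mitochondria, and CASP2 on the PIDDosome. They cleave effector caspases such as CASP6, which cut cellular proteins. XIAP binds and inhibits CASP9 and effector caspases directly, whereas BIRC2 and BIRC3 (cIAP1 and cIAP2) are ubiquitin ligases recruited by TRAF2 to TNF receptors, where they promote canonical NF-kB signalling and keep the kinase NIK low.

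Glucose-deprived cells had more CASP8, CASP9, CASP10 and BIRC2 RNA and less CASP2, CASP6 and BIRC3 RNA, and XIAP was not called. All 8 genes passed the filter on low values (at least 1 normalized count on average over the 4 libraries), and 7 changed at an adjusted p under 0.05 in limma, a linear model fitted to all genes: 4 rose and 3 fell. Of all 27486 genes tested, 35.1% were called, 14.4% as higher and 20.7% as lower. Among the 10656 protein-coding genes that averaged 50 or more normalized counts, a level that all 8 exceed and here called the expressed coding genes, 66.0% were called, 18.9% as higher and 47.2% as lower. The median log2 fold change was 0.09 over the 8 genes, 0.04 over all tested genes and -0.20 over the expressed coding genes. The groups did not overlap for 7 of the 8 genes, a property shared by 66.8% of all tested genes and 85.3% of expressed coding genes. Not all of the 7 calls held under other settings. Scaling to library totals removed those of CASP2 and CASP6, and DESeq2, another test, did not call CASP9. With no variance trend in limma, only CASP8 was called. In bulk libraries, fewer cells expressing a gene and less of its RNA per cell cannot be told apart.

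Recovered reads numbered 19035535 in ONG_9 and 20081266 in ONG_10, against 96698709 in CTRL_7 and 24513840 in CTRL_8. CASP9 had 72 to 280 reads per library, and the other 7 genes at least 797. Of the 10 T-lineage markers 9 had a mean of at least 50 normalized counts, with PTCRA the exception, and their sums were 61924 and 63249 in No glucose libraries and 63868 and 62430 in Ctrl libraries. Single T-lineage markers moved both ways beneath these sums. CD3E had 8846 and 8337 in No glucose and 5882 and 5928 in Ctrl, and CD247 had 3836 and 3954 against 3424 and 3341. CD3G had 7564 and 7181 in No glucose and 10043 and 10132 in Ctrl, and CD7 had 270 and 523 against 756 and 666. The 5 B cell markers summed to 523 and 536 in No glucose and 907 and 894 in Ctrl, almost all of it CD79A and CD79B, and MS4A1 was at 0 in both No glucose libraries. The 6 myeloid markers summed to 33.4 and 54.7 in No glucose and 40.2 and 44.1 in Ctrl, with MPO at 0 throughout, and the 4 erythroid markers summed to 0 and 0 in No glucose and 1.72 and 0 in Ctrl. The 6 adherent cell markers summed to 21383 and 20140 in No glucose and 17166 and 16704 in Ctrl, of which VIM, also made by leukaemia cells, gave 20179 and 19066 in No glucose and 15509 and 15019 in Ctrl. The other adherent markers with a mean of at least 50 were lower in No glucose: PECAM1 had 763 and 659 in No glucose and 1168 and 1136 in Ctrl, and EPCAM had 423 and 383 in No glucose and 482 and 535 in Ctrl. The part of the T-lineage, B cell and adherent cell marker shifts in the results was not tested. No label names separate cultures for the replicates, so the spread behind the p-values is that between these libraries and may be technical.

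CASP8 and CASP10 lie next to each other on chromosome 2, as do BIRC3 and BIRC2 on chromosome 11 (GRCh38, GENCODE 29). CASP10 runs from 201182881 to 201229406 and CASP8 from 201233443 to 201287711, both on the plus strand and 4.04 kb apart. BIRC3 runs from 102317450 to 102339403 and BIRC2 from 102347211 to 102378670, also both on the plus strand, 7.81 kb apart. CASP2 is on chromosome 7, CASP6 on chromosome 4, CASP9 on chromosome 1 and XIAP on chromosome X. Exons of CASP6 share 105 bases, 5.40% of its exon length, with MCUB on the opposite strand, and those of CASP9 share 106 bases with CELA2B, which had at most 1.40 normalized counts in any library. MCUB had 2355 and 2304 normalized counts in No glucose libraries and 3384 and 3331 in Ctrl libraries, lower without glucose like CASP6. The counting strand is not given in the sources used here, so reads from the stretch shared by CASP6 and MCUB cannot be assigned with certainty.

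The 250 bases before the transcription start of BIRC3 and of BIRC2 are shown because these neighbouring genes moved in opposite directions. They are from RefSeq on GRCh38.p14, chr11:102317234-102317483 for BIRC3 and chr11:102346964-102347213 for BIRC2, plus strand, 5′ to 3′, and capitals mark matches to the NF-kB motif.
BIRC3: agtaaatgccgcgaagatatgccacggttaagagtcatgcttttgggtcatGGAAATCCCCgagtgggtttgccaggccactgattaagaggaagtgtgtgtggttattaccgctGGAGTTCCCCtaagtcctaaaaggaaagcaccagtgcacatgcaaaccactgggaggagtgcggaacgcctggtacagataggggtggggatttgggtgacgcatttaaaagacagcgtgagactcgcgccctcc
BIRC2: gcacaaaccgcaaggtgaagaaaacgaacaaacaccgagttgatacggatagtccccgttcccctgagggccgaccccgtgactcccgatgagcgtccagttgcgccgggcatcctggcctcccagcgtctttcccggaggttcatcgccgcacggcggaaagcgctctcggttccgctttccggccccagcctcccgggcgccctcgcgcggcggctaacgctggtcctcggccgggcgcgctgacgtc
The BIRC3 window held 2 NF-kB matches, beginning 199 and 135 bases before the start, both read on the minus strand, and the BIRC2 window held 0. Of 35116 RefSeq promoter windows of this length, 9.96% held at least 1 match on either strand. Of the 8 genes 7 had a window in the table, and BIRC3 was the only one of these 7 with an NF-kB match. The GC box GGGCGG, found on either strand in 42.6% of all windows, had 8 matches in CASP9, 4 in CASP2, 3 in CASP6, 1 in CASP8, 1 in XIAP and 0 in BIRC3 and BIRC2, overlapping matches included. TATAAA and the FOXO core GTAAACA, in 10.7% and 2.98% of all windows, had 0 matches in the 7 windows. The interferon gamma activated site TTCNNNGAA, in 6.57% of all windows, was matched at 1 place, 200 bases before the CASP8 start. A match is a description of these letters and not evidence that a factor binds there.

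Among the initiator caspases, CASP8, which starts the death receptor pathway, rose the furthest. It had 4776 and 4223 normalized counts in ONG_9 and ONG_10, against 2683 and 2574 in CTRL_7 and CTRL_8. Both glucose-deprived libraries stood far above both control libraries. The log2 fold change was 0.77 ± 0.07 (SE, n = 2 libraries per group, limma with Benjamini-Hochberg adjustment over all tested genes, adjusted p = 5.0e-06), or 1.71-fold. It exceeded the log2 fold change of 95.6% of expressed coding genes. CASP8 was called as higher under all 14 alternative settings, with log2 fold changes from 0.68 to 0.98 and adjusted p from 2.5e-19 to 0.0498.

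CASP10, the neighbouring paralog that can also act at death receptors, rose less. It had 1396 and 1261 normalized counts in the No glucose libraries and 1088 and 1066 in the Ctrl libraries. The groups did not overlap, and the log2 fold change was 0.30 ± 0.07 (SE, limma adjusted p = 0.0080). The call was lost without CTRL_7 (adjusted p = 0.13), without CTRL_8 (0.15) and with a variance model that has no trend on expression (0.15), within a range of 0.00053 to 0.15 over the alternatives.

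The ratio of CASP8 to CASP10 within a library, which does not depend on the scaling of that library, was 3.42 and 3.35 in No glucose libraries and 2.47 and 2.41 in Ctrl libraries. Both glucose-deprived libraries were above both controls, so CASP8 outweighed CASP10 by more without glucose. With 2 libraries against 2, an exact permutation test cannot give a p below 0.33, so ratios are given with no test. CASP8 and CASP10 have isoforms that the gene-level table does not separate.

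CASP9, the caspase of the apoptosome, was the lowest of the 8 genes. It had 124 and 142 normalized counts in the No glucose libraries and 96.2 and 96.3 in the Ctrl libraries, from 82 reads in ONG_9, 101 in ONG_10, 280 in CTRL_7 and 72 in CTRL_8. Its groups did not overlap, with the higher value in ONG_10, whereas the other 7 genes were higher in ONG_9. The log2 fold change was 0.46 ± 0.15 (SE, limma adjusted p = 0.031). The call was lost without ONG_10 (adjusted p = 0.11), without CTRL_7 or CTRL_8 (0.19 each), with no variance trend (0.092) and with DESeq2 (0.19), against 0.0083 with library totals, and the adjusted p in the authors' deposited table was 0.209.

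CASP2, the caspase of the PIDDosome, took the other direction. It had 2497 and 2458 normalized counts in the No glucose libraries and 3074 and 3067 in the Ctrl libraries. The libraries of each group were close together and the groups stood apart, with a log2 fold change of -0.31 ± 0.06 (SE, limma adjusted p = 0.0013). This is the 41.9th percentile of the expressed coding genes, near their median of -0.20. Its call was lost without CTRL_7 (adjusted p = 0.094), without CTRL_8 (0.077), with no variance trend (0.11), and with scaling to library totals, where the log2 fold change was -0.10 (adjusted p = 0.13).

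The effector caspase CASP6, which cleaves nuclear lamins, also fell. It had 1534 and 1427 normalized counts in the No glucose libraries and 1766 and 1778 in the Ctrl libraries. Both No glucose values were lower than both Ctrl values, and the log2 fold change was -0.26 ± 0.07 (SE, limma adjusted p = 0.010). That is the 45.6th percentile of the expressed coding genes. The call was lost without CTRL_7 (adjusted p = 0.17), without CTRL_8 (0.19), with no variance trend (0.17) and with library totals (log2 fold change -0.05, adjusted p = 0.53).

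Of the IAPs, BIRC3 fell, BIRC2 rose and XIAP was not called. BIRC3 had 1386 and 1319 normalized counts in the No glucose libraries and 2016 and 2002 in the Ctrl libraries. The groups were far apart relative to the spread within each, and the log2 fold change was -0.57 ± 0.06 (SE, limma adjusted p = 3.3e-05), or 0.673-fold. It was called as lower under 13 of 14 alternatives, with log2 fold changes from -0.61 to -0.36, and missed the threshold with no variance trend (adjusted p = 0.053).

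BIRC2 had 3061 and 2718 normalized counts in the No glucose libraries and 2363 and 2436 in the Ctrl libraries. The groups did not overlap, although ONG_9 and ONG_10 differed from each other by more than ONG_10 did from CTRL_8. The log2 fold change was 0.27 ± 0.07 (SE, limma adjusted p = 0.011). The call was lost without CTRL_7 (adjusted p = 0.22), without CTRL_8 (0.12) and with no variance trend (0.20).

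The ratio of BIRC3 to BIRC2 was 0.453 and 0.485 in No glucose libraries and 0.853 and 0.822 in Ctrl libraries. It was lower in both glucose-deprived libraries than in either control, at 0.560 of the control mean. Both genes encode cIAPs, and BIRC2 RNA exceeded BIRC3 RNA in every library by normalized counts per kb of exon as well.

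XIAP, the direct caspase inhibitor, had 4080 and 3800 normalized counts in the No glucose libraries and 4313 and 4046 in the Ctrl libraries. The groups overlapped. The log2 fold change was -0.09 ± 0.06 with a 95% interval of -0.22 to 0.05 (limma adjusted p = 0.33), and library totals gave 0.13 (adjusted p = 0.078). XIAP was called as lower without ONG_9 (-0.14, adjusted p = 0.015) and with limma-voom (-0.15, adjusted p = 0.020). The ratio of XIAP to BIRC2 was 1.33 and 1.40 in No glucose libraries and 1.83 and 1.66 in Ctrl libraries, lower without glucose in both. The 3 IAP genes summed to 8527 and 7836 normalized counts in No glucose libraries and 8691 and 8484 in Ctrl libraries, so their summed level overlapped between groups.

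**Figure D1:**
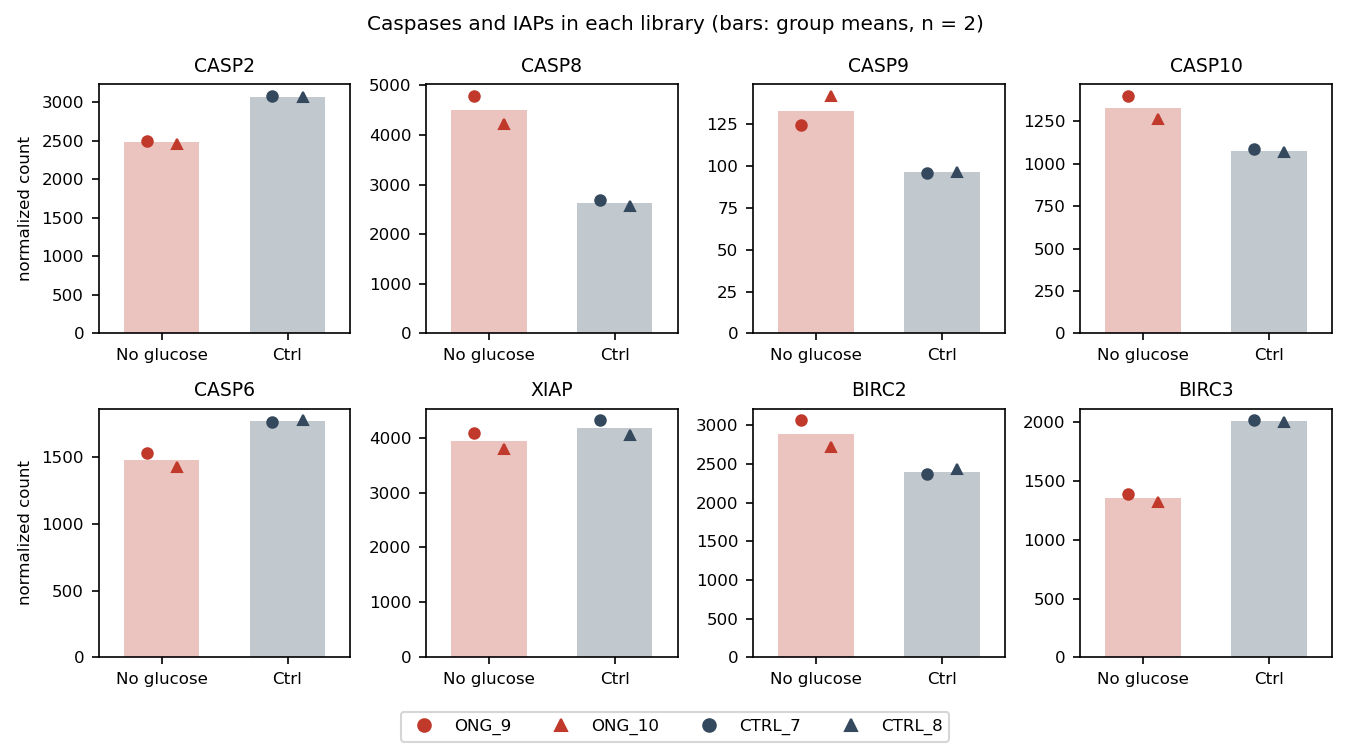
Normalized counts (vertical axes, from 0) of the 8 genes in each library, No glucose left and Ctrl right, with bars at group means of 2 libraries. CASP8 stood at 4776 and 4223 in No glucose and 2683 and 2574 in Ctrl, and XIAP is the gene whose groups overlap.

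The size of these changes depends in part on the scaling. The deposited values use size factors, and library totals in their place shifted the median log2 fold change over all tested genes by 0.19, and that over expressed coding genes by 0.21, to 0.01. Under library totals the 4 risen genes were still called as higher and BIRC3 was still called as lower, while CASP2 and CASP6 were not called and XIAP changed sign. Without CTRL_7 or without CTRL_8, 1 of the 8 genes was called as higher, CASP8, and 1 as lower, BIRC3, against 4 and 3 with all libraries. ONG_9 was higher than ONG_10 for 7 of the 8 genes, as it was for 72.4% of 5990 protein-coding genes that averaged 1000 or more.

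**Figure D2:**
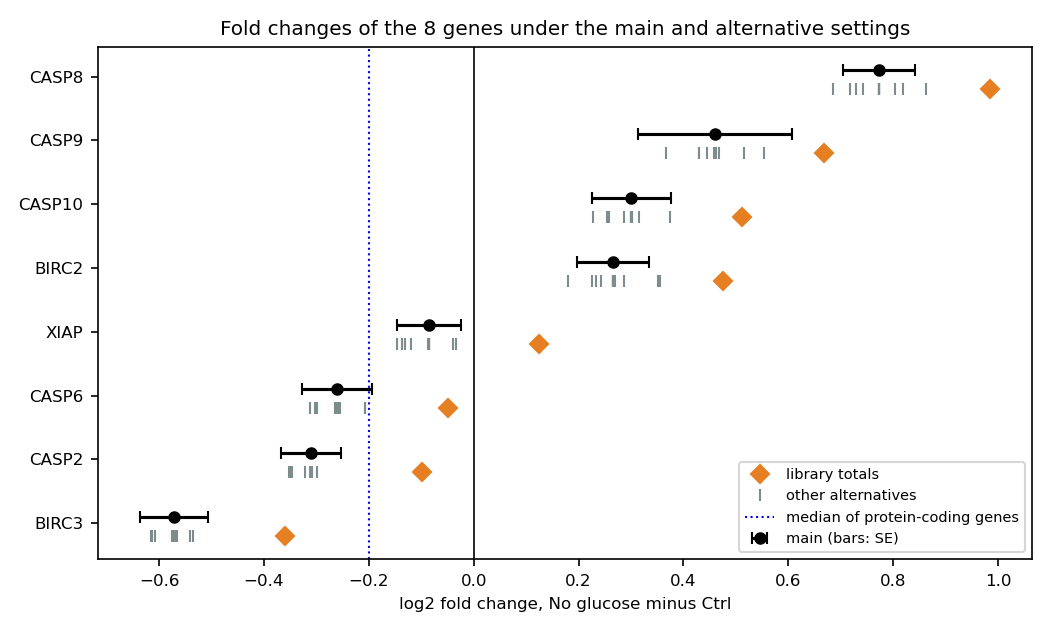
Log2 fold change, No glucose minus Ctrl (horizontal axis), of each gene with its SE (black), under 14 alternatives (ticks, with library totals as diamonds) and beside the median of expressed coding genes at -0.20 (dotted line). CASP8 is farthest to the right at 0.77 and BIRC3 farthest to the left at -0.57, and library totals lie to the right of the main value for every gene.

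Levels can be set against each other only per length. Per kb of exon (all annotated exons of the gene merged), CASP6 was highest, with 762 ± 39.1 normalized counts in No glucose and 912 ± 4.17 in Ctrl (SD, n = 2). BIRC2 was next with 638 ± 53.6 in No glucose and 529 ± 11.4 in Ctrl. CASP8 came next without glucose at 621 ± 54.0 per kb, where its libraries overlapped those of BIRC2, whereas in Ctrl it had 363 ± 10.7 and ranked below XIAP and CASP2 as well. XIAP had 437 ± 22.0 per kb in No glucose and 463 ± 20.9 in Ctrl, and CASP2 had 309 ± 3.43 in No glucose and 383 ± 0.627 in Ctrl. BIRC3 had 180 ± 6.29 per kb in No glucose and 267 ± 1.24 in Ctrl, and CASP10 had 175 ± 12.6 in No glucose and 142 ± 2.06 in Ctrl, so their libraries overlapped without glucose and stood apart in Ctrl. CASP9 was last in both groups, with 25.2 ± 2.33 per kb in No glucose and 18.3 ± 0.0175 in Ctrl. The order rests on the length used: by the longest principal transcript of each gene, CASP8 ranks first in both groups, at 2762 per kb in No glucose and 1613 in Ctrl.

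The rest of the caspase and IAP pathways, 56 genes in 9 lists by role, moved both ways. Of the 50 tested, 10 rose, 20 fell and 20 were not called, so 60.0% were called. The share was 35.1% of all tested genes and 66.0% of expressed coding genes, although some pathway genes averaged under 50 normalized counts. Of all tested genes 14.4% were higher and 20.7% lower, and of expressed coding genes 18.9% were higher and 47.2% lower. The counts by list below are to be read against these shares. The median log2 fold change of the 50 was -0.16. Library totals gave 18 higher and 13 lower, and the counts were 8 higher and 13 lower without CTRL_7 and 7 higher and 15 lower without CTRL_8. With no variance trend 6 were higher and 8 lower, and the calls lost included those of CASP1, CASP8AP2, TNFRSF10B, APAF1, PIDD1, BIRC6, BIRC7, TRAF2, TRAF3 and TNFAIP3, at adjusted p from 0.052 to 0.17. The 6 genes not tested, CASP5, CASP12, CASP14, BIRC8, NAIP and ZBP1, had at most 5 reads in any library. CASP12 and BIRC8 had 0 reads in all 4, which allows up to 3 reads in each.

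Of the inflammatory caspases, CASP1, which acts at inflammasomes, fell by limma, whereas the authors' deposited comparison gave an adjusted p of 0.055 (DESeq2). DESeq2 run on the recovered reads called CASP1 as lower, close to the threshold (adjusted p = 0.047). It had 188 and 194 normalized counts in No glucose libraries and 255 and 281 in Ctrl libraries, a log2 fold change of -0.49 ± 0.11 (SE, limma adjusted p = 0.0055), and lost its call without CTRL_7 (0.059), without CTRL_8 (0.14) and with library totals (0.089). CASP4 was not called at 0.17 ± 0.08 and was called as higher with library totals (0.38, adjusted p = 0.0071), with the length correction (0.25, adjusted p = 0.041) and without ONG_10 (0.28, adjusted p = 0.018). CASP4 is named after its values were seen, as are BIRC6, APAF1, CFLAR, TNFRSF10B, TRAF3, CYLD, TNFAIP3, DFFA, LMNB1, RIPK3 and DIABLO in what follows.

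On the death receptor side, CFLAR, the catalytically inactive relative of CASP8 that limits CASP8 activation, rose beside it. CFLAR had 2464 and 2454 normalized counts in No glucose libraries and 1500 and 1449 in Ctrl libraries, a log2 fold change of 0.74 ± 0.06 (SE, limma adjusted p = 3.4e-06). The ratio of CASP8 to CFLAR, chosen after the values were seen, was 1.94 and 1.72 in No glucose and 1.79 and 1.78 in Ctrl, so the groups overlapped. Of the 9 genes of this platform 3 rose, 3 fell and 3, among them the adaptor FADD, were not called. TNFRSF10B, a receptor for TRAIL, rose by 0.68 ± 0.16 on the log2 scale (limma adjusted p = 0.0064), a call lost without ONG_10 (0.063), CTRL_7 (0.065) or CTRL_8 (0.078) and, by DESeq2, at 0.057. CASP8AP2, a CASP8-binding protein needed for histone expression, fell the furthest of the 3 called as lower, with 5787 and 5329 in No glucose and 8361 and 8266 in Ctrl (-0.58 ± 0.06). FASLG, the ligand of FAS, was called as higher from few reads: 10 and 6 in No glucose and 2 and 1 in Ctrl, a ratio of 14.2 after scaling with a 95% exact binomial interval of 4.07 to 76.2 that covers counting error only, and DESeq2 gave it no adjusted p.

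**Figure D3:**
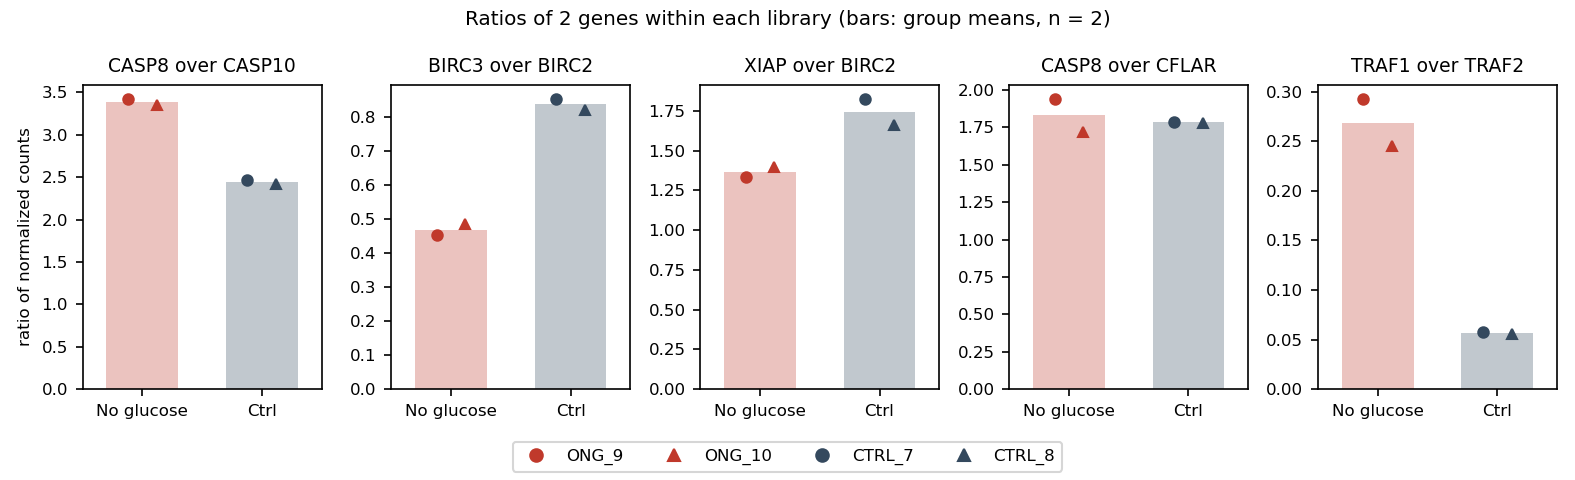
Ratios of the normalized counts of 2 genes within each library (vertical axes, from 0), No glucose left and Ctrl right, with bars at group means of 2 libraries. CASP8 over CASP10 is higher and BIRC3 over BIRC2 lower without glucose, whereas CASP8 over CFLAR overlaps at 1.94 and 1.72 against 1.79 and 1.78.

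Of 3 apoptosome genes 2 fell, of 2 PIDDosome genes 1 fell, and 0 of either list rose by limma. Of expressed coding genes, 47.2% were called as lower and 18.9% as higher, so counts in lists this small are descriptions only. At an unadjusted p under 0.05 limma had 0 apoptosome genes and 1 PIDDosome gene higher (CRADD), and edgeR, DESeq2 and limma-voom called 0 as higher. CYCS, cytochrome c, had 5625 and 5276 normalized counts in No glucose libraries and 10599 and 10611 in Ctrl libraries (log2 fold change -0.96 ± 0.05, limma adjusted p = 1.9e-07). APAF1, the scaffold that recruits CASP9, had 1205 and 1045 in No glucose and 1599 and 1586 in Ctrl (-0.50 ± 0.08, limma adjusted p = 0.00038). CASP9 was called as higher by limma but not by DESeq2 (adjusted p = 0.19), while both its apoptosome partners were called as lower. PIDD1, the scaffold for CASP2, had 168 and 262 in No glucose and 420 and 334 in Ctrl (-0.83 ± 0.18, limma adjusted p = 0.0041), a call lost without CTRL_7 (0.11) and with library totals (0.056). The adaptor CRADD was not called at 0.21 ± 0.09 and was called as higher with library totals (0.42, adjusted p = 0.0048).

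Of the 3 other IAP family members tested, 2 rose and 1 fell. BIRC5 (survivin), which acts mainly in cell division, had 4323 and 4661 normalized counts in No glucose libraries and 7631 and 7318 in Ctrl libraries (log2 fold change -0.74 ± 0.06, limma adjusted p = 2.1e-06). BIRC6, a very large ubiquitin-conjugating IAP, had 19189 and 17869 in No glucose and 15666 and 15301 in Ctrl (0.26 ± 0.05, limma adjusted p = 0.0021), a call lost without CTRL_7 (0.14) and without CTRL_8 (0.19). BIRC7 was called as higher from 9 and 16 reads in No glucose and 21 and 2 in Ctrl, a ratio of 2.90 after scaling with a 95% exact binomial interval of 1.58 to 5.34 from counting error alone. Its call was lost without ONG_10 (0.18) and without CTRL_8 (0.16), and with DESeq2 (0.13). Of the 4 IAP antagonists, proteins that free caspases from IAPs, only the mitochondrial protease HTRA2 was called: it had 540 and 605 in No glucose and 1006 and 948 in Ctrl (-0.77 ± 0.08, limma adjusted p = 2.7e-05). DIABLO, which is released from mitochondria, was not called at 0.35 ± 0.15 (limma adjusted p = 0.098) and was called as higher with library totals (0.56, adjusted p = 0.026) and without ONG_9 (0.49, adjusted p = 0.019). Of the 2 gene IDs that carry the DIABLO symbol, the one counted here has at least 91 reads in each library and the other at most 2.

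The partners of the cIAPs at TNF receptors moved both ways: of 13 genes 3 rose, 4 fell and 6 were not called. TRAF2, the adaptor that recruits the cIAPs, had 622 and 836 normalized counts in No glucose libraries and 1415 and 1284 in Ctrl libraries (log2 fold change -0.90 ± 0.12, limma adjusted p = 0.00011). TRAF1, which pairs with TRAF2, had 182 and 205 in No glucose and 81.1 and 70.9 in Ctrl (1.34 ± 0.15, limma adjusted p = 2.8e-05). Their ratio, chosen after the values were seen, was 0.293 and 0.245 in No glucose and 0.0573 and 0.0552 in Ctrl, higher without glucose in both libraries. TRAF3, which links the cIAPs to NIK, fell by 0.60 ± 0.06 on the log2 scale. The deubiquitinases CYLD (0.66 ± 0.07) and TNFAIP3 (0.42 ± 0.06), both brakes on NF-kB signalling, rose. BIRC3 and TNFAIP3 are both known NF-kB targets, and here 1 fell and the other rose. NF-kB targets were not examined as a set, and NF-kB activity was not tested.

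In the list of caspase substrates, 5 of 10 genes had less RNA and 2 had more. Among the 5 is the apoptotic DNase, whose inhibitor, rather than itself, is the substrate. PARP1, the DNA repair enzyme whose cleavage marks apoptosis, had 6896 and 6825 normalized counts in No glucose libraries and 13851 and 13682 in Ctrl libraries (log2 fold change -1.0 ± 0.05, limma adjusted p = 8.2e-08). BID, which CASP8 cleaves to engage mitochondria, had 1295 and 1339 in No glucose and 2807 and 2628 in Ctrl (-1.04 ± 0.07, limma adjusted p = 4.1e-07). DFFA, the inhibitor of the apoptotic DNase, and the lamin LMNB1, both substrates of effector caspases, fell by 0.92 ± 0.06 and 0.89 ± 0.05 on the log2 scale. GSDME, a pore-forming protein that caspase cleavage activates, had 143 and 139 in No glucose and 57.7 and 48.2 in Ctrl (1.40 ± 0.17, limma adjusted p = 5.1e-05). LMNA, the lamin cut by CASP6, was low but rose, with 34.9 and 39.3 in No glucose and 5.84 and 8.03 in Ctrl (2.27 ± 0.34, limma adjusted p = 0.00026). In the necroptosis list the effector MLKL, active when CASP8 is blocked, had 358 and 359 in No glucose and 703 and 740 in Ctrl (-1.01 ± 0.08, limma adjusted p = 3.5e-06). Its kinase RIPK3, at 36.4 and 50.5 in No glucose and 31.3 and 21.4 in Ctrl, was not called at 0.71 ± 0.28 (limma adjusted p = 0.077) and was called as higher with library totals (0.91, adjusted p = 0.041) and without ONG_9 (0.94, adjusted p = 0.026).

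**Figure D4:**
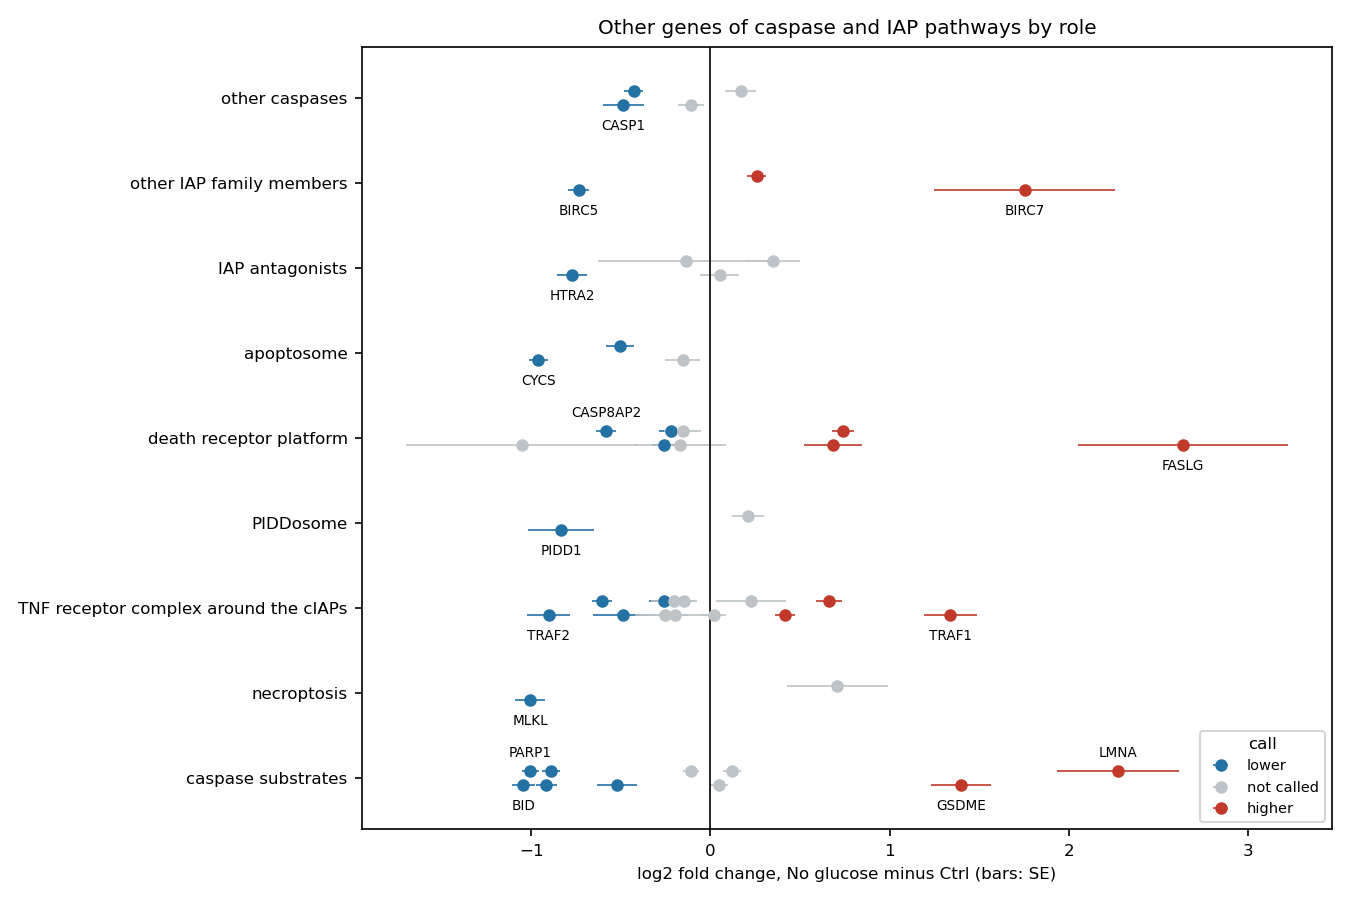
Log2 fold change, No glucose minus Ctrl (horizontal axis), with its SE for the 50 tested pathway genes, one row per role, red where called as higher, blue where called as lower and grey where not called. Cytochrome c (CYCS, -0.96) and the cleavage targets BID and PARP1 lie to the left, and TRAF1 (1.34) and GSDME (1.40) to the right.

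By the distance of mean-centred log2 values over the 4 libraries, searched among 11206 other genes with a mean of at least 50, the genes nearest to CASP8 were RNF19A, PTGDR and CCDC186, with log2 fold changes of 0.75, 0.78 and 0.74. Those nearest to BIRC3 were DNAJC8, PSMD11 and EHBP1, at -0.57, -0.58 and -0.56. With 4 libraries in 2 groups this likeness is little more than an equal fold change.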

How the data were processed

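RNA was sequenced from 2 No glucose and 2 Ctrl libraries. Per the submitters' processing notes, STAR 2.6.0c, RSEM 1.3.0 and DESeq2 1.18.1 were used on hg38. The annotation release and counting strand are not given in the sources used here. The signal values are counts that the authors divided by 1 size factor per library, as deposited. The authors also deposited log2 fold changes with standard errors, test statistics (score) and p-values of their comparison, of which an adjusted p is quoted where named. The ONG columns were read as No glucose, since the table names only 2 groups.

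Dividing each column by its smallest value gave whole reads, within 0.01, for 100% of values above 0. The main test was two-sided, by limma 3.58.1 with a variance trend under R 4.3.3, on the log2 of normalized counts plus a pseudocount of 1, over all genes with a mean of at least 1. P-values were adjusted by the Benjamini-Hochberg method and called under 0.05. The design named edgeR only for a table of raw counts. Fold changes on this scale understate those of low genes. Alternatives used edgeR 4.0.16, DESeq2 1.42.0 and limma-voom on the recovered reads, library totals, other filters and pseudocounts, no variance trend, a correction for transcript length (GENCODE 29), and each library left out, where the lone library is assumed to vary like the other group. The tests were also run on simulated counts with the same dispersion for every gene. That run does not test the choice of scaling or the spread between these libraries.

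The genes, lists and tests were chosen with earlier results of these data known. Named genes were the 8 members, in each pathway list the called gene with the largest change each way and any called gene whose log2 fold change reached 1 in size, and the 3 genes most like CASP8 and BIRC3. Pathway genes named beyond this rule are marked in the text, except FADD, CRADD and the untested genes, which also lie outside it. Some genes of the pathway lists are not reported here by name.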

Additional observations from a re-analysis of the deposited data

How the results depend on the processing

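With scaling to library totals 6104 genes were higher, 1 of the 8 genes was lower, and 18 pathway genes were higher and 13 lower. XIAP then changed sign to 0.13 (log2) and was not called. DESeq2 called 2436 genes as higher. Without the variance trend 1378 genes were higher and 1873 lower, with 1 of the 8 genes higher (CASP8) and 0 lower, and 6 pathway genes higher and 8 lower. At an unadjusted p under 0.05 that setting had 2 of the 8 lower, and edgeR and DESeq2 each called 3 and limma-voom 4 as lower. Leaving out each library in turn gave 2027 to 4172 genes higher and 3318 to 6387 lower, 1 to 4 of the 8 genes higher and 1 to 4 lower, and 7 to 13 pathway genes higher and 13 to 23 lower. The lowest counts came without CTRL_7 or CTRL_8, whereas without ONG_9 4172 genes were higher and 6387 lower. The cause of these shifts was not tested. All other counts of calls, 65 of them, stayed within 1.5 times the main count. No paired analysis was possible because the columns carry no replicate numbers of the labels. With 72 to 280 reads per library, CASP9 is the member whose precision depth limits most.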
